A study of Mus musculus with 6 samples.

Results

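Interleukin-6 (IL6) was given for 3 h to macrophages grown from mouse bone marrow with M-CSF (M-BMDM), and the RNA of this culture was compared with that of M-BMDM without IL6. The comparison was 1 library a side, chosen as 2 of the 6 libraries of the series, over the 55536 rows of the count table that carry a gene name. Per the labels, all marrow came from C57BL/6 mice aged 8 weeks, and the cultures lasted 7 days. The other libraries were uncultured marrow (BM), M-BMDM after 24 h of IL6, marrow macrophages raised in GM-CSF (GM-BMDM) without IL6 and the same type after 3 h of it. No genetic change is named for any group. The dose of IL6, the number of mice behind each library and the handling of the cultures without IL6 are not stated in the labels. The 24 h library shares its control, the M-BMDM library, with the 3 h library, so its values are only set beside the 3 h values. The GM-BMDM pair shares no library with the M-BMDM pair.

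IL6 binds its receptor chain Il6ra, and the complex engages the shared chain gp130, encoded by Il6st. Gp130 activates the kinases Jak1, Jak2 and Tyk2, which phosphorylate the transcription factor STAT3. STAT3 switches on its own inhibitor Socs3, which binds gp130 and the kinases and limits the signal. In macrophages this cascade is known for its early transcriptional targets, among them Socs3, Bcl3 and Il4ra. M-CSF acts through another receptor, Csf1r, and sustains the growth and survival of macrophages.

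The M-BMDM library held 18511777 counts in named genes and the 3 h library 22624458. Levels are given as CPM, counts scaled to a common library size by TMM (trimmed mean of M-values), a scaling that centres most genes on equal levels. Core macrophage markers were abundant in both: all 12 listed markers had at least 5 CPM, with a summed level of 40100 CPM without IL6 and 44700 after 3 h. The labelled cell type thus had its defining markers. Mature neutrophil markers summed to 115 and 117 CPM, with Ly6g, Retnlg, Stfa1 and Stfa2l1 at 0, and T and NK cell markers to 2.36 and 2.81 CPM with Cd3d, Cd3e and Cd3g at 0. B lineage markers summed to 61.5 and 62.0 CPM, monocyte markers to 912 and 1000 CPM, and erythroid markers to 13.3 and 8.80 CPM. Of the 12 B lineage markers only Blnk had at least 5 CPM. Of the 12 monocyte markers 5 did, and most of their sum was S100a4, with a mean log2 level of 9.82 over the pair. In bulk RNA, fewer cells of a type and less RNA per cell cannot be told apart.

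After 3 h of IL6 almost no gene of M-BMDM stood 2-fold or more from its level without IL6. In all, 9937 genes reached 5 CPM in 1 or both libraries, and of these 9 were higher (0.0906%) and 27 were lower (0.272%). A gene was counted when its ratio was at least 2-fold, its 95% interval lay wholly on 1 side of equal levels and the level was 5 CPM or more in the higher library. The intervals cover counting error only, and with 1 library a side these counts have no replicate check. In the GM-BMDM pair 6 of 10255 genes were higher (0.0585%) and 11 were lower (0.107%). After 24 h of IL6 in M-BMDM, 1186 of 10313 genes were higher (11.5%) and 921 were lower (8.93%).

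The spread of the ratios was narrow. The quartiles of the log2 ratio over the 9937 genes were -0.12 and 0.13. For the 4073 genes with at least 50 CPM, the 5th and 95th percentiles were -0.27 and 0.24, against -0.19 and 0.19 in the GM-BMDM pair and -1.50 and 1.57 after 24 h. The counting interval excluded equal levels for 43.4% of genes at 3 h, since highly expressed genes have narrow intervals, so most of these differences were small. At a limit of 1.5-fold, 56 genes were higher and 110 lower.

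**Figure D1:**
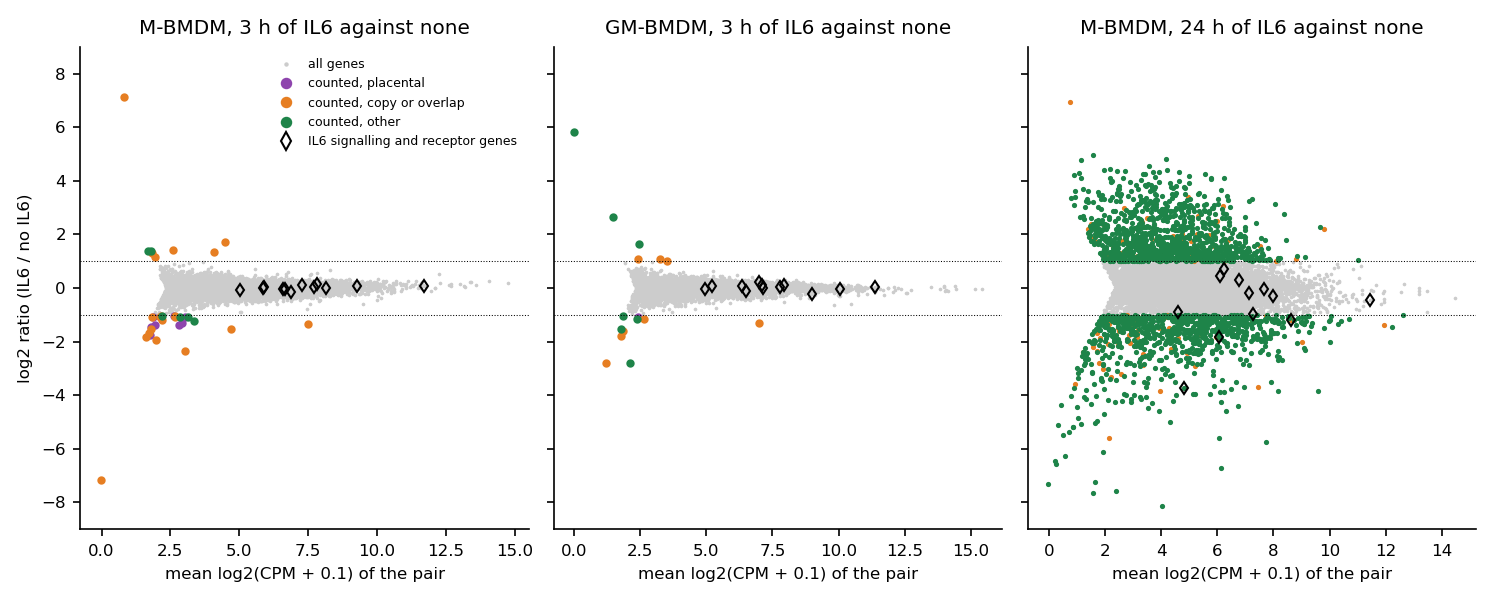
Each point is a gene with at least 5 CPM in a pair; the x axis is its mean log2(CPM + 0.1) and the y axis its log2 ratio of IL6 to no IL6, with dotted lines at 2-fold, for M-BMDM at 3 h (left), GM-BMDM at 3 h (middle) and M-BMDM at 24 h (right). Coloured points are counted genes by class, and the open diamonds, 12 genes of IL6 signalling and cytokine receptors, lie inside the lines in both 3 h panels; genes with 0 counts in 1 library of a pair have no ratio and are not drawn.

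The receptor and kinases that carry the IL6 signal were expressed at both times and differed little. Il6ra (chromosome 3, 89864059 to 89913196, GRCm38) had 59.1 CPM in M-BMDM and 60.7 CPM after 3 h (log2 ratio 0.04, 95% interval -0.08 to 0.16). Il6st (chromosome 13, 112464070 to 112510086) had 97.5 and 95.8 CPM (-0.02, -0.12 to 0.07). Both intervals included equal levels.

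Jak1 had 206 CPM in M-BMDM and 211 CPM after 3 h (log2 ratio 0.03). Jak2 had 125 and 112 CPM (-0.15, -0.24 to -0.07), and Tyk2 had 58.1 in both. Jak2 was the kinase with an interval below equal levels at 3 h, and after 24 h it had 34.8 CPM. Stat3 (chromosome 11, 100885098 to 100939540) had 148 CPM without IL6 and 160 CPM after 3 h (0.12, 0.05 to 0.19). Among all 27 genes listed for the receptor, kinase and STAT chain, which adds phosphatases, PIAS proteins, adaptors and sheddases, 0 were higher and 0 lower, with every interval within 2-fold. Over all 9937 genes, 0.0906% were higher and 0.272% lower. A count of 0 here, or in a list below, thus does not set that list apart. Their log2 ratios ran from -0.28 for Stat4 to 0.21 for Pias3, with a median of 0.04, against 0.01 over all 9937 genes.

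Socs3, the feedback inhibitor and a classical early target of STAT3, was level at 3 h. Socs3 (chromosome 11, 117966079 to 117970047) had 102 CPM in M-BMDM and 99.4 CPM after 3 h, a log2 ratio of -0.03 with an interval of -0.12 to 0.06. The GM-BMDM pair had 142 and 141 CPM. After 24 h the M-BMDM library had 7.60 CPM of Socs3. Of the SOCS genes, 5 had at least 5 CPM, and their ratios lay between -0.22 for Socs4 and -0.03 for Socs3. Socs1, an inhibitor of JAK kinases, stood at 4.08 CPM without IL6 and 3.81 CPM after 3 h. Cish, a STAT5 target, stood at 0.967 and 0.544 CPM (-0.83, -2.02 to 0.30), too few counts to place its ratio within 2-fold. In the GM-BMDM pair Cish had 174 and 172 CPM.

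The remaining STAT3 targets did not stand apart. Of 34 listed targets with at least 5 CPM, 0 were higher and 0 lower by 2-fold, and their median log2 ratio was 0.05, with 23 above 0 and 11 below. Over all 9937 genes, 0.0906% were higher, 0.272% were lower, 52.6% had a ratio above 0 and the median was 0.01. Bcl3, an atypical IkappaB protein, had 33.2 CPM without IL6 and 31.9 CPM after 3 h (-0.06, -0.22 to 0.10). Il4ra, the IL4 receptor alpha chain, had 215 and 237 CPM (0.14, 0.08 to 0.20). Junb, a subunit of AP-1, had 253 and 261 CPM, and Myc, a regulator of growth, 113 and 114 CPM. Il1rn, the antagonist of IL1, had 143 and 167 CPM (0.22, 0.15 to 0.30). After 24 h, 16 of the listed targets were lower and 1 was higher by the 2-fold rule. The 24 h shares over all 10313 genes were 8.93% lower and 11.5% higher.

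Cebpb was the listed STAT3 target with the lowest ratio. It encodes C/EBP beta, a transcription factor of myeloid cells, and had 236 CPM in M-BMDM and 155 CPM after 3 h (-0.60, -0.67 to -0.54), a difference below the 2-fold limit. In the GM-BMDM pair it had 136 and 131 CPM. After 24 h the log2 ratio of Cebpb in M-BMDM was -3.42.

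**Figure D2:**
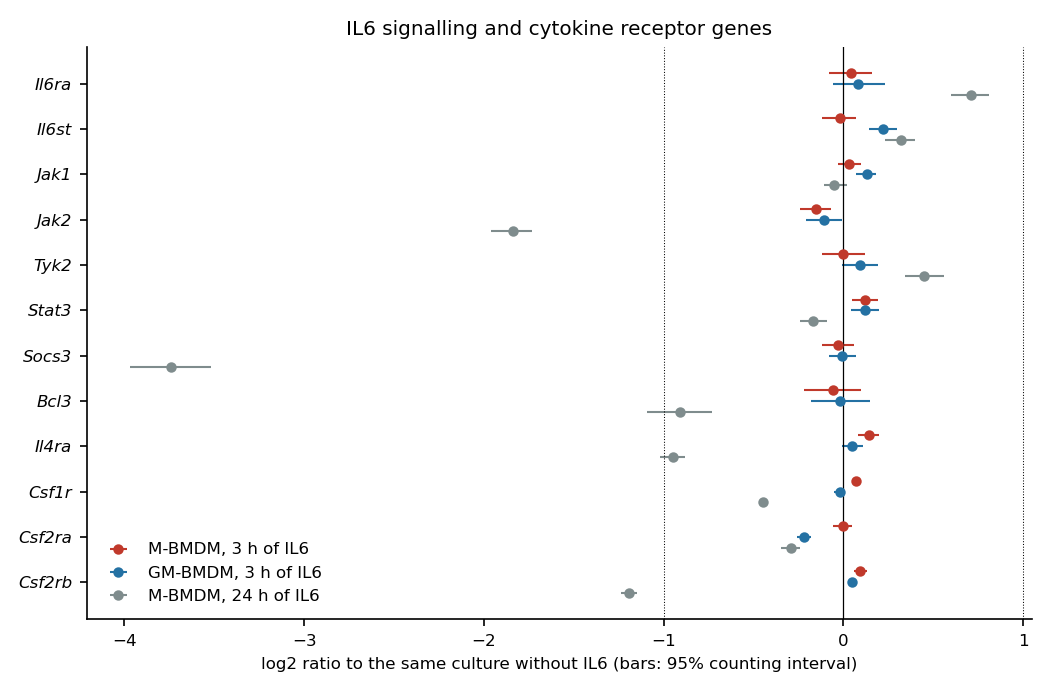
Log2 ratio to the same culture without IL6 (x axis) for 12 genes of IL6 signalling and cytokine receptors (y axis), with bars for the 95% counting interval. The 3 h points of both macrophage types lie close to 0, while Socs3 at 24 h lies at -3.74 and Jak2 at -1.84.

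The promoters of several of these targets hold the letters that STAT proteins bind. The motif TTCNNNGAA, which reads alike on both strands, was searched in the 250 bases before each RefSeq start (GRCm38.p6), where 7840 of 9928 gene symbols with at least 5 CPM matched a promoter. It was found for 7 of 29 STAT3 targets (24.1%) and for 6.93% of all matched genes. Targets holding it had a median log2 ratio of 0.00 at 3 h and those without it 0.05, so the stretches below belong to genes that were level. They are examples from 4 targets, 1 stretch each, in which no annotated exon overlaps the stretch; 3 more in Bcl6 and 1 in Sbno2 are not shown. The motif is in capitals, and each stretch is read 5′ to 3′ on the strand of its gene.
Socs3, chr11:117969492-117969540, minus strand: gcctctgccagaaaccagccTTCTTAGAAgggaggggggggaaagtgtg
Irf1, chr11:53769904-53769952, plus strand: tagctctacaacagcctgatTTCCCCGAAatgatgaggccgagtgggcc
Icam1, chr9:21015878-21015926, plus strand: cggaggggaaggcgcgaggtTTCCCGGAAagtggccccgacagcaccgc
Bcl6, chr16:23988942-23988990, minus strand: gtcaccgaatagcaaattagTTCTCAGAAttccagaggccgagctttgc
Irf1, an interferon regulatory factor, had 34.0 CPM without IL6 and 33.3 CPM after 3 h. Icam1, an adhesion molecule, had 229 and 243 CPM, and Bcl6, a repressor, had 120 and 121 CPM. A match of letters is a description and not a measured binding site.

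The growth factor receptors of the cultures were level too. Csf1r, the M-CSF receptor, had 3230 CPM without IL6 and 3410 CPM after 3 h (0.07, 0.06 to 0.09). Csf2rb, the signalling subunit for GM-CSF, had 592 and 632 CPM (0.09, 0.06 to 0.13), and Csf2ra, its binding chain, 281 and 280 CPM. Of 25 listed receptors of cytokines and growth factors, 0 were higher and 0 lower (0.0906% and 0.272% over all 9937 genes), with a median of 0.00.

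Inflammatory genes showed no 2-fold difference at 3 h. Of 30 NF-kappaB and pro-inflammatory genes, 0 were higher and 0 lower (median -0.03), and of 18 chemokine ligands 0 were higher and 0 lower (median -0.13). Over all 9937 genes the shares were 0.0906% higher and 0.272% lower. Tnf had 169 CPM without IL6 and 145 CPM after 3 h (-0.22, -0.30 to -0.15). Il1b, which encodes IL1 beta, had 260 and 246 CPM (-0.08). Ccl2, a chemoattractant of monocytes, had 321 and 278 CPM (-0.21), and Cxcl2, which attracts neutrophils, 92.1 and 75.1 CPM (-0.29). These ratios were below 0 with intervals that excluded equal levels, and each was smaller than 1.5-fold. After 24 h the medians of both lists were -2.12 and -3.41, and Il1b had 0.913 CPM.

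Immediate early genes, which respond to many stimuli within the first hour, had a median log2 ratio of 0.04 over 32 genes with at least 5 CPM. Jun had 324 CPM without IL6 and 355 CPM after 3 h (0.13), and Dusp1, a phosphatase of MAP kinases, 70.3 and 74.0 CPM. Nr4a1, an orphan nuclear receptor, had the highest ratio of the list, with 11.2 and 16.1 CPM (0.52, 0.27 to 0.77). In the GM-BMDM pair Nr4a1 had 4.37 and 3.17 CPM, so its direction was opposite there, a difference that was not tested.

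Interferon-stimulated genes had small ratios, most of them below 0. Of 49 genes, 0 were higher and 0 lower by 2-fold, but 41 had a ratio below 0 and the median was -0.18, against -0.02 for the same list in the GM-BMDM pair. Over all 9937 genes of the M-BMDM pair, 0.0906% were higher, 0.272% were lower and 52.6% had a ratio above 0. Mx1, a GTPase that acts against viruses, had 38.9 CPM without IL6 and 27.6 CPM after 3 h (-0.50, -0.65 to -0.34). Rsad2, the antiviral protein viperin, had 103 and 82.2 CPM (-0.32), and Isg15, a ubiquitin-like protein, 46.0 and 41.1 CPM (-0.16). Irf7, a regulator of interferon genes, had 64.0 and 61.4 CPM (-0.06). The interferon-stimulated response element, searched on both strands, was found in the promoters of 20 of 37 listed genes (54.1%) and of 3.39% of all genes. Listed genes with it had a median of -0.16 and those without it -0.18.

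Cytosolic ribosomal protein genes had small ratios, most of them above 0. Of 41 genes, 39 had a ratio above 0, the median was 0.20, and 0 were higher by 2-fold. Over all 9937 genes, 52.6% had a ratio above 0 and 0.0906% were higher by 2-fold. The same list had a median of -0.03 in the GM-BMDM pair. Rpl13 had 658 CPM without IL6 and 759 CPM after 3 h (0.21), and Rpl38 had 89.7 and 121 CPM (0.43, 0.34 to 0.52). These are short transcripts, with a median length of 860 bases, and the ratio moved with length over all genes. The 1994 shortest of the 9937 genes had a median log2 ratio of 0.10 and the 1988 longest -0.08, while in the GM-BMDM pair they had -0.02 and 0.06. The part of length in the ribosomal protein and interferon values was not tested.

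Genes of macrophage function kept their levels within 2-fold. Of 38 core macrophage genes, 0 were higher and 0 lower (0.0906% and 0.272% over all 9937 genes), with a median of 0.13. Lyz2, the lysozyme of myeloid cells, had 26000 CPM without IL6 and 29800 CPM after 3 h (0.20), and Adgre1, which encodes F4/80, had 896 and 974 CPM (0.12). Mertk, a receptor for dying cells, had the highest ratio of that list, at 7.68 and 9.80 CPM (0.35, 0.04 to 0.67). Of 39 lysosomal genes, 33 had a ratio above 0, against 52.6% of all 9937 genes, with a median of 0.09. Ctsb, a protease of lysosomes, had 11700 and 12800 CPM (0.13). Of 10 MHC class II genes, which present antigen, the median was 0.11, and H2-Aa had 209 and 235 CPM (0.17, 0.11 to 0.23). After 24 h H2-Aa had 47.8 CPM. Sterol synthesis genes had a median of 0.15 over 24 genes.

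Genes of glucose use and hypoxia had a median of 0.17 over 31 genes, with 25 above 0, against 52.6% of all 9937 genes. Their ratios ran from -0.44 for Car9 to 0.78 for Egln3. The same list had a median of -0.03 in the GM-BMDM pair and -0.57 after 24 h. Ldha, lactate dehydrogenase A, had 926 CPM without IL6 and 1170 CPM after 3 h (0.34, 0.31 to 0.36), and Slc2a1, the glucose transporter GLUT1, 379 and 429 CPM (0.18). Proliferation genes had a median of 0.09 over 31 genes, and Top2a, a topoisomerase of dividing cells, had 90.6 and 92.1 CPM. After 24 h all 31 proliferation genes were higher, against 11.5% of all 10313 genes, with a median of 2.86, and Top2a had 801 CPM.

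Across all 45 lists, which named 1019 distinct genes, 850 had at least 5 CPM in the pair. Of these 0 were higher and 1 was lower, the mitochondrial gene mt-Co3, and 845 had an interval that lay wholly within 2-fold. The shares over all 9937 genes were 0.0906% higher and 0.272% lower. The medians of the 45 lists ran from -0.23 to 0.20. By the same rule after 24 h, 69 of 861 listed genes were higher and 241 were lower. Over all 10313 genes at 24 h, 11.5% were higher and 8.93% were lower.

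**Figure D3:**
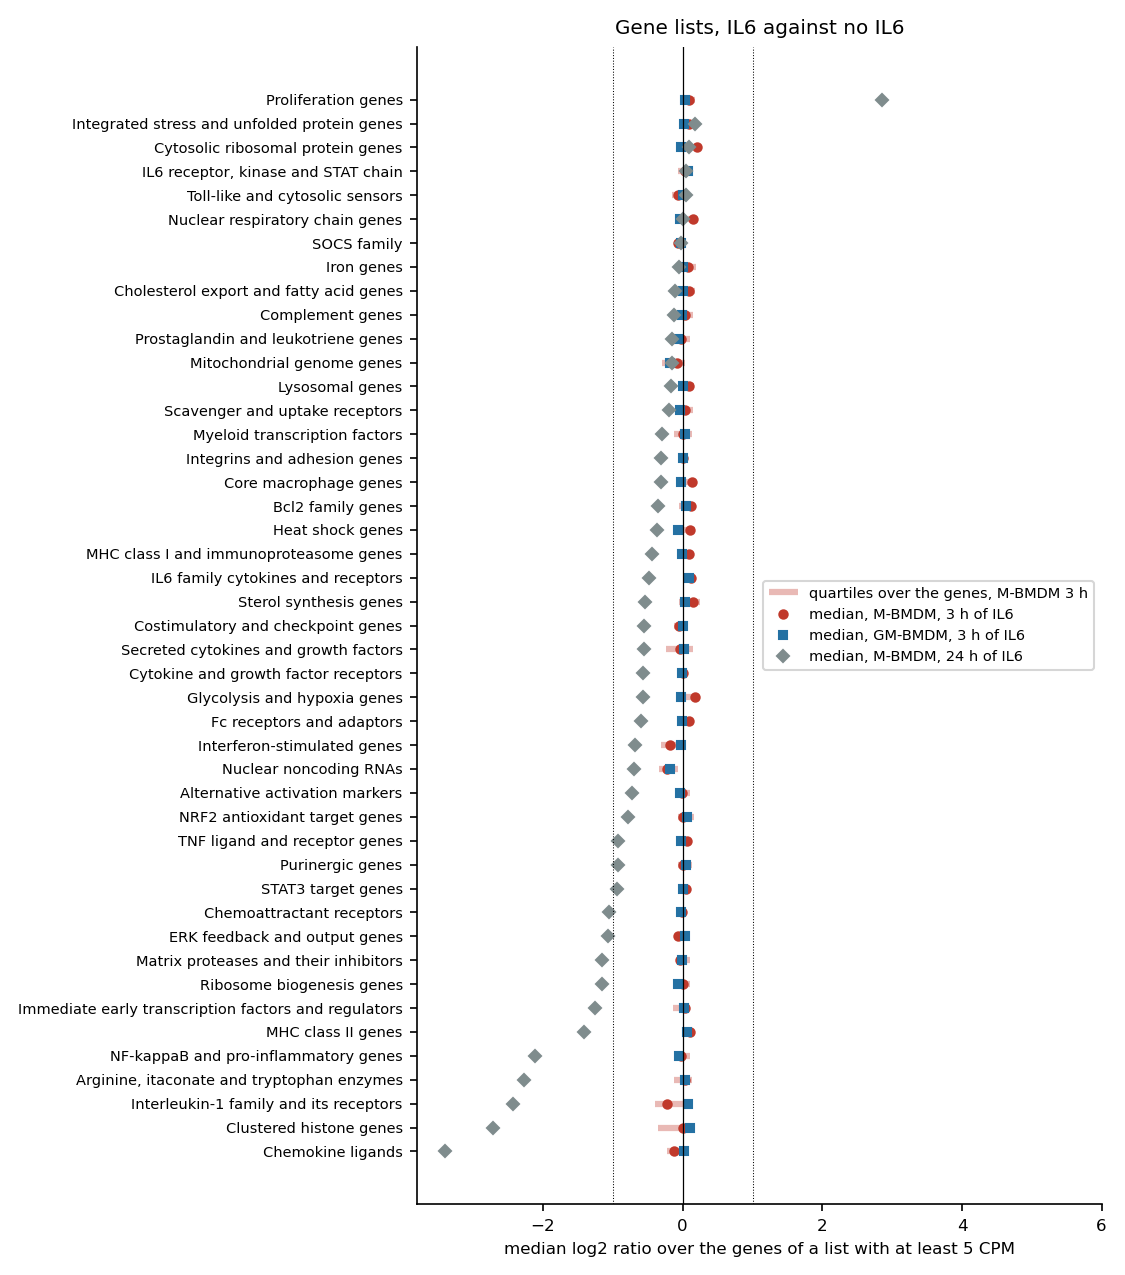
Median log2 ratio (x axis) over the genes with at least 5 CPM in each of 45 lists (y axis), for M-BMDM at 3 h (circles, with bars for the quartiles over genes), GM-BMDM at 3 h (squares) and M-BMDM at 24 h (diamonds); dotted lines mark 2-fold. The circles lie between -0.23 and 0.20, and the diamonds reach -3.41 for chemokine ligands and 2.86 for proliferation genes.

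The 36 genes that did pass the 2-fold rule (0.362% of 9937) were mostly genes that share sequence with another gene. Of these, 24 (66.7%) had a near-identical copy elsewhere in the annotation or shared at least 50% of their exon bases with other genes. The share was 5.83% over all genes with at least 5 CPM. A copy is another gene whose sequence matches at 95% identity or more over at least 50% of the transcript. Placental genes, chosen as a group after their values were seen, made up 8 of the 36, and 9 (0.0906%) of all genes with at least 5 CPM. Low levels were common, and 24 of the 36 had under 10 CPM in the higher library. Among genes with 5 to 10 CPM, 1.90% were counted, and among the 3148 genes with 50 to 200 CPM, 0.

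The pair Entpd4 and Entpd4b shows how copies moved. Both are annotated on chromosome 14, at 69337174 to 69367270 and 69555424 to 69585520, and encode a nucleotide hydrolase of the Golgi and lysosomes. Entpd4 had 12.3 CPM in M-BMDM and 40.6 CPM after 3 h (log2 ratio 1.72, 1.51 to 1.94). Entpd4b had 44.2 and 15.5 CPM (-1.52, -1.70 to -1.33). Summed, the pair had 56.5 and 56.1 CPM (-0.01, -0.13 to 0.11), so the sum was level while its members exchanged places. In the GM-BMDM pair the exchange ran the other way, with Entpd4 at 30.9 and 17.8 CPM and Entpd4b at 30.1 and 47.3 CPM. The 1839 coding bases of both in GENCODE M21 had 0 mismatches, and the first 60 are shown because reads from them cannot be told apart.
Entpd4: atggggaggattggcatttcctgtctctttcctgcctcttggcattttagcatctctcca
Entpd4b: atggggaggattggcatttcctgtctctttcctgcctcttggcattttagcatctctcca

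Rps13, a protein of the small ribosomal subunit, and its processed copies behaved in a similar way. Rps13 had 86.3 CPM in M-BMDM and 124 CPM after 3 h. The pseudogene Rps13-ps2 had 18.5 and 3.58 CPM (-2.37, -2.74 to -2.01), and Rps13-ps1 had 109 and 114 CPM. The sum of all 3 was 214 and 242 CPM (0.18, 0.12 to 0.24). Rps13-ps2 matched the 453 coding bases of Rps13 with 0 mismatches, while Rps13-ps1 had 2, which lie in the stretch from base 370 to base 429 and are set in capitals.
Rps13: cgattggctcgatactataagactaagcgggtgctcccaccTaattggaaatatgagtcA
Rps13-ps1: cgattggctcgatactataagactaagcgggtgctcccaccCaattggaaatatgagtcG

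Srp54c, annotated for a GTPase of the signal recognition particle, had 0 counts in M-BMDM and 136 counts after 3 h, at least 38.3-fold higher against a floor of 3 counts in the M-BMDM library. Its copies Srp54a and Srp54b had 124 and 108 CPM without IL6 and 105 and 83.5 CPM after 3 h. The sum of all 3 was 232 and 195 CPM (-0.25, -0.31 to -0.19). In the GM-BMDM pair Srp54c had 202 and 0 counts. Fam220a, which encodes a protein known to bind STAT3, is annotated in 2 overlapping rows on chromosome 5. The row counted as lower had 122 counts without IL6 and 1 count after 3 h (log2 ratio -7.17, -12.49 to -4.67), and the other row had 11.2 and 17.2 CPM. Both rows together had 17.8 and 17.2 CPM (-0.04, -0.26 to 0.17).

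mt-Co3, the mitochondrial gene for subunit III of cytochrome c oxidase, was the counted gene with the highest level. It had 290 CPM in M-BMDM and 114 CPM after 3 h (-1.35, -1.41 to -1.28). Gm28437, a nuclear copy on chromosome 1, had 2480 and 2950 CPM, and both together had 2770 and 3060 CPM (0.14, 0.13 to 0.16). Over 783 aligned bases the copies had 0 mismatches, and their first 60 bases are shown for that reason.
mt-Co3: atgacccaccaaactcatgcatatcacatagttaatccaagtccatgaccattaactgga
Gm28437: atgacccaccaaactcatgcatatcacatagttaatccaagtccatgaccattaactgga
mt-Co2, which encodes subunit II, had 231 and 133 CPM (-0.80) and its copy Gm28661 had 3130 and 3410 CPM. Both together had 3360 and 3540 CPM (0.08, 0.06 to 0.09). mt-Nd4l, which encodes a subunit of complex I and has a near-identical copy in Gm10222, had 44.4 and 24.2 CPM (-0.88, -1.04 to -0.72). mt-Nd3 (0.52, 0.42 to 0.62) and mt-Atp8 (0.30, 0.16 to 0.44) had ratios above 0. The more abundant mt-Co1 had 9180 and 9450 CPM, and mt-Cytb had 1950 and 1910 CPM. Rows of the mitochondrial genome held 2.06% of the counts without IL6 and 1.94% after 3 h. These shares leave out the counts given to nuclear copies such as Gm28437 and Gm28661, which were higher after 3 h.

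**Figure D4:**
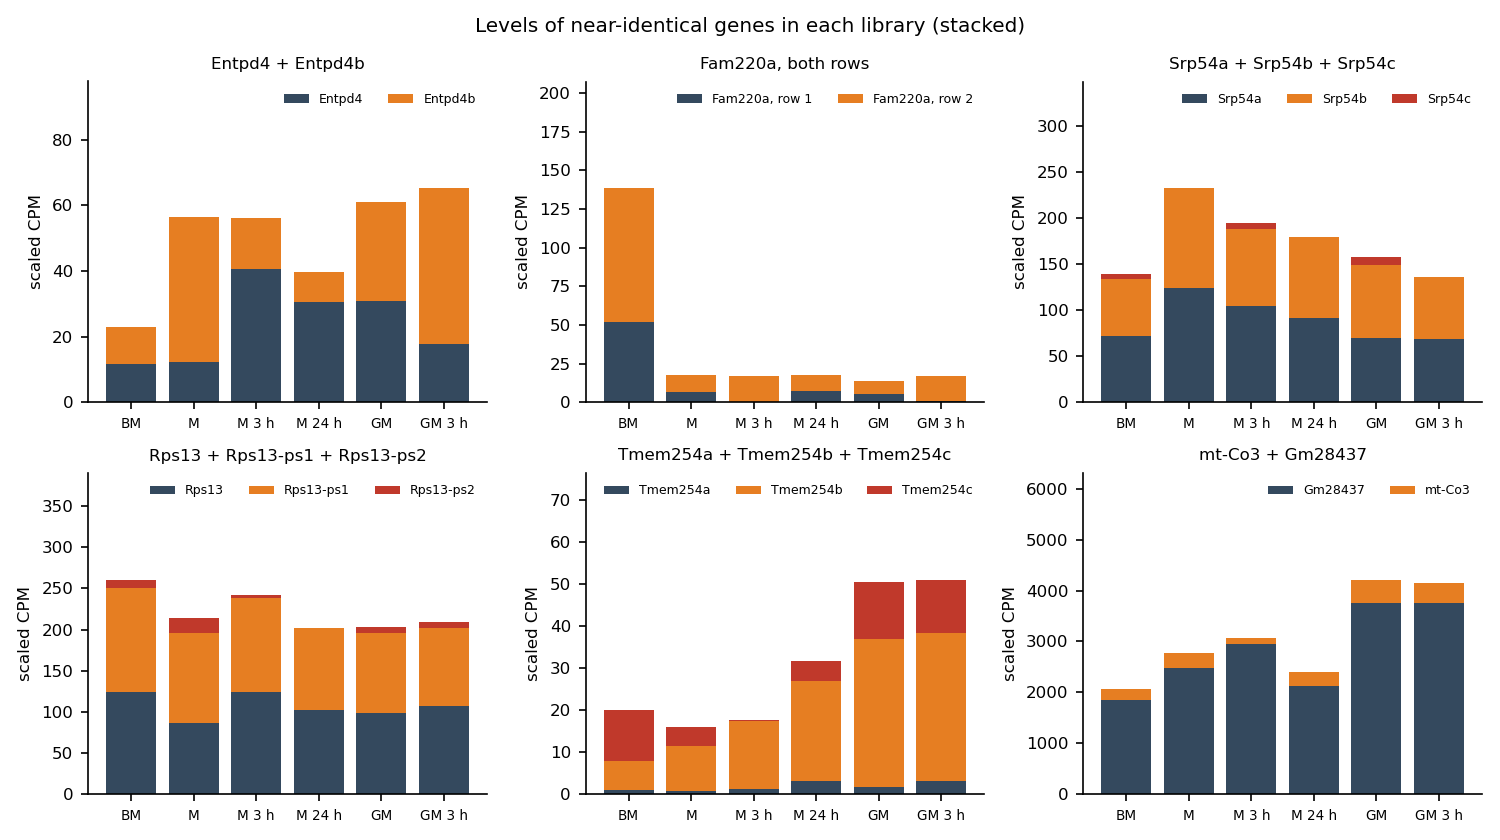
Scaled CPM (y axis) of near-identical genes in each of the 6 libraries (x axis), stacked, for 6 families. In Entpd4 and Entpd4b the split differs between libraries while the M-BMDM sums with and without 3 h of IL6 are 56.5 and 56.1 CPM.

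When near-identical copies were summed, an alternative added after seeing the data, 4 of 9755 genes or families were higher and 12 were lower. The higher ones were Gm13849, Gm21969, Gm49482 and Hyal3. Gm21969 had 2 counts without IL6 and 334 counts after 3 h (7.14, 5.28 to 10.19). Other genes overlap 91.7% of its exon bases, the largest part by Aldh4a1, which had 8.11 and 8.75 CPM. Gm49482, annotated as antisense, had 10.4 and 26.6 CPM (1.35, 1.11 to 1.59). Other genes overlap 93.8% of its exon bases, the largest part by Gpr84, a receptor for medium-chain fatty acids, which had 394 and 420 CPM. The labels do not say if counting used strand, so it is not known whether reads of partners on opposite strands were kept apart. Hyal3, a hyaluronidase, had 39 and 122 counts (log2 interval 0.87 to 1.96), and in the GM-BMDM pair 25 and 6 counts. Gm13849, a long noncoding RNA, had 1.93 and 5.08 CPM (1.39, 0.84 to 1.98). Both Hyal3 and Gm13849 lack such a copy or overlap; these 4 genes were named after their values were seen.

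Genes known from the placenta, 9 of all 9937 genes with at least 5 CPM, made up 8 of the 12 lower families. Prl3b1, placental lactogen II, had 11.1 CPM in M-BMDM and 4.31 CPM after 3 h (-1.37, -1.73 to -1.01). Psg21 and its copy Psg23, pregnancy-specific glycoproteins, together had 20.5 and 8.98 CPM (-1.19), with ratios of -1.30 for Psg21 and -1.06 for Psg23. Tpbpa, a trophoblast protein, had 11.7 and 5.58 CPM (-1.06, -1.39 to -0.74). The others were Tpbpb, the placental cathepsins Cts3 and Ctsj, Ceacam11 and the family of Psg28 and Psg26. Of 32 placental genes with at least 20 counts in the pair, 32 had a ratio below 0, with a median of -1.21 and a range of -2.64 to -0.37. Over all 9937 genes, 52.6% had a ratio above 0. The group was chosen after its values were seen, and some members pass the limit mainly through M-BMDM. Prl2c3, for example, had 1.13 and 0.181 CPM, so the 32 ratios are a description only.

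Placental transcripts were present at low levels in every library of the series. All 49 summed to 46.5 CPM in BM, 129 CPM in M-BMDM, 57.0 CPM after 3 h and 86.1 CPM after 24 h of IL6, and to 66.1 and 40.3 CPM in the GM-BMDM pair. The log2 ratio of the sums was -1.18 in the M-BMDM pair (-1.28 to -1.08) and -0.72 in the GM-BMDM pair (-0.85 to -0.59). M-BMDM without IL6 was the library with the highest sum, and the sum made up 0.0130% of its counts. The source of these transcripts was not tested.

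**Figure D5:**
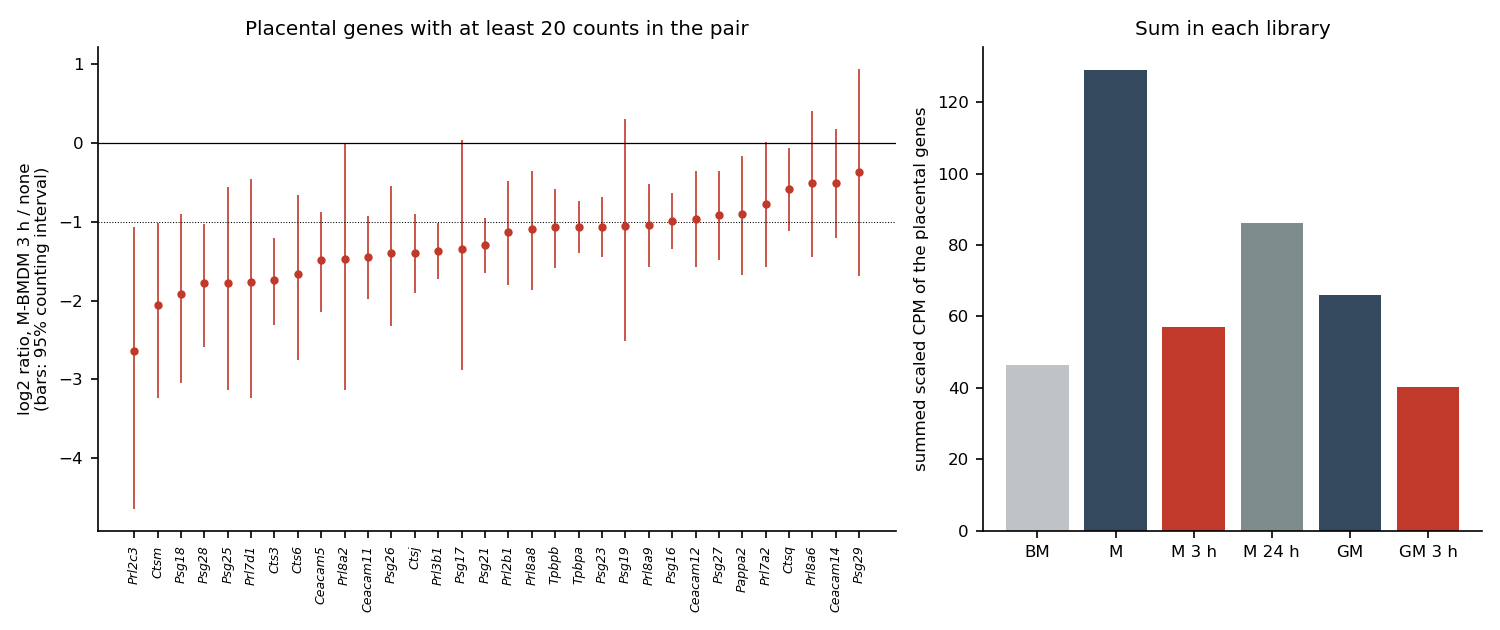
Left, log2 ratio of M-BMDM with 3 h of IL6 to M-BMDM (y axis) with 95% counting intervals for the 32 placental genes (x axis) with at least 20 counts in the pair; right, summed scaled CPM of 49 placental genes (y axis) in each library (x axis). All 32 points lie below 0, and the M-BMDM bar at 129 CPM is the highest of the 6.

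Col1a1, a chain of type I collagen made by stromal cells, was the other named gene among the lower ones. It had 10.1 CPM in M-BMDM and 4.85 CPM after 3 h (-1.06, -1.42 to -0.72). The 14 stromal and endothelial markers summed to 60.5 and 49.8 CPM, with none at 0 counts, and Col1a2, the partner chain, had a ratio of 0.11. The part of stromal RNA in the Col1a1 value was not tested. The remaining lower ones, named after their values were seen, were 2210418O10Rik, Gm10645 and Gm42793.

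A test was possible only for a 3 h effect shared by both macrophage types. edgeR's quasi-likelihood test on the 4 libraries of both pairs, with a term for cell type, left 1 residual degree of freedom, in which the responses of the types differ. The fit replaced each gene's own value of that difference by a spread pooled over genes of similar level, so genes whose pairs differ can pass. Of 14719 genes, 29 rose (0.197%) and 107 fell (0.727%) at an adjusted p under 0.05. Nothing in the labels says that the libraries came from separate cultures, so p-values measure only the spread between these libraries, which may be technical, and the estimated coefficient of variation was low, at 6.73%. Of those that rose, 20 had ratios above 0 in both pairs, and of those that fell, 104 had ratios below 0 in both. DESeq2's Wald test called 0 rises and 4 falls, with 36 and 149 genes at an unadjusted p under 0.05.

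Of the 29 genes that rose, 23 (79.3%) had a copy or an overlapping gene, as did 35 (32.7%) of the 107 that fell, compared with 8.34% of all 14719 genes tested. Among the others, Egln3, a prolyl hydroxylase that marks HIF proteins for decay and is induced by low oxygen, had 11.9 CPM in M-BMDM and 20.4 CPM after 3 h, and 1.15 and 2.19 CPM in the GM-BMDM pair (shared log2 change 0.82, SE 0.187, edgeR adjusted p = 0.00364). After 24 h Egln3 had 1.08 CPM. Bmf, a BH3-only inducer of cell death, had 4.73 and 7.16 CPM, and 23.9 and 32.8 CPM in the GM-BMDM pair (0.51, SE 0.132, edgeR adjusted p = 0.0168). mt-Nd3 (0.47, edgeR adjusted p = 3.0e-05) and Akap2, an anchor of protein kinase A (0.63, edgeR adjusted p = 0.00317), also rose; the first has a nuclear copy and the second overlaps Pakap. The other Fam220a row, Gm20425, Gm29609, Gm43738, Gm44965, Gm49369 and Gm5345 completed the named rises. All of these but Gm5345 had a copy by the limits used, such as Ctsd for Gm49369, and Gm5345 is a pseudogene that matches a shorter part of Gapdh.

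Of the genes that fell, 95 of 107 had at least 5 CPM in the M-BMDM pair, and of those that rose 14 of 29. Placental genes made up 8 of the falls, and 28 of all genes tested. The nuclear noncoding RNAs Malat1 and Neat1 fell in both types. Malat1 had 872 CPM in M-BMDM and 584 CPM after 3 h, and 297 and 207 CPM in the GM-BMDM pair (shared log2 change -0.55, SE 0.0852, edgeR adjusted p = 3.2e-07). Neat1, which builds paraspeckles, had 1190 and 874 CPM, and 1730 and 1150 CPM in the GM-BMDM pair (-0.51, edgeR adjusted p = 2.7e-06). Prpf38b, a splicing factor, had 115 and 81.6 CPM (-0.52, edgeR adjusted p = 3.2e-06). The list of nuclear noncoding RNAs had a median M-BMDM ratio of -0.23 over 10 genes, with 2 that fell and 0 that rose. Other genes that fell, named after their values were seen, were the splicing factors Luc7l2, with 138 and 97.9 CPM, and Hnrnph1, with 281 and 208 CPM, and the chromatin remodeller Atrx, with 95.2 and 67.3 CPM.

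The rows of mt-Co2 (-1.05, edgeR adjusted p = 2.1e-30) and mt-Co3 (-0.76, edgeR adjusted p = 6.9e-15) fell as well. However, the ratios of mt-Co3 were -1.35 in the M-BMDM pair and -0.21 in the GM-BMDM pair. Summed with its copy Gm28661, mt-Co2 had ratios of 0.08 in the M-BMDM pair and -0.19 in the GM-BMDM pair. Summed with Gm28437, mt-Co3 had ratios of 0.14 and -0.02. mt-Nd4l fell too (-0.49, edgeR adjusted p = 4.0e-04), with a ratio of -0.14 in the GM-BMDM pair, as did Gm4631, a zinc finger gene, with 15.7 and 6.62 CPM (-1.10). Rps13-ps2, the lower Fam220a row, Gm14296 and Gm47123 completed the named falls, and Gm14296 differed mainly in the GM-BMDM pair, with 13.4 and 13.3 CPM in the M-BMDM pair.

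Of the listed pathway genes, 0 of the 27 in the receptor, kinase and STAT chain rose or fell, as did 0 of the 5 SOCS genes. Over all 14719 genes tested, 0.197% rose and 0.727% fell, so 0 in lists of this size does not set them apart. Among STAT3 targets 1 of 34 fell, Cebpb (shared log2 change -0.33, SE 0.0842, edgeR adjusted p = 0.0176), although its ratio in the GM-BMDM pair was -0.05. Among interferon-stimulated genes 3 of 49 fell and 0 rose. Ifit2, an RNA-binding protein of the antiviral response, had 81.3 CPM in M-BMDM and 57.9 CPM after 3 h, and 9.24 and 7.10 CPM in the GM-BMDM pair (-0.45, edgeR adjusted p = 0.00715). Ifi209, of the family of DNA sensors, had 34.0 and 23.4 CPM (-0.43, edgeR adjusted p = 0.0117), and Trim30d had 40.5 and 30.4 CPM (-0.40, edgeR adjusted p = 0.0378). The difference between the responses of M-BMDM and GM-BMDM could not itself be tested, since it was the residual of the fit. Of the 36 genes counted in M-BMDM and the 17 counted in GM-BMDM, 2 were counted the same way in both, a Fam220a row and the pseudogene Gm15429, which are 5.56% and 11.8% of the respective counts.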

How the data were processed

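Total RNA of 6 mouse libraries, 1 per group, was sequenced. The deposited table holds expected counts for each gene, not all of them whole numbers; per the submitters' processing notes the authors used HISAT2, StringTie and DESeq2 and the GRCm38 build, with no order or settings. Of 56278 rows, 742 without a gene name (0.300% of the M-BMDM counts and 0.310% at 3 h) were left out. All 55536 named rows matched GENCODE M21, which gave positions, lengths and overlaps. Expected counts were rounded. Genes with a CPM of 1 in at least 1 library were analysed (14719). Counts were scaled by TMM over 6 libraries (edgeR 4.0.16, R 4.3.3). Ratios between paired libraries carry an exact 95% interval (Clopper-Pearson, conditional binomial); intervals and the floor of 3 counts cover counting error only, since PCR copies were not marked by molecular identifiers. The median interval reached 0.36 either side (log2) at 5 to 10 CPM and 0.05 at 200 to 1000 CPM.

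The shared test was edgeR's quasi-likelihood test with Benjamini-Hochberg adjustment. Copies were found with BLAST 2.17.0 between the longest transcripts of all genes, at 95% identity over 50% of the transcript. Steps were tested on simulated data with 200 changed genes. Named genes were 15 fixed genes of IL6 signalling and cytokine receptors, the 15 highest and 15 lowest counted ratios with at least 10 CPM (1 and 6 existed, leaving out predicted and pseudogene names), up to 4 counted genes of each list, up to 10 genes per direction of the shared test that moved alike in both pairs, and genes counted in opposite directions in the macrophage types. The comparison, the lists and the rules were chosen with earlier results of these data known. Alternatives were other scalings, limits, filters and tests (DESeq2 1.42.0, limma 3.58.1). Values of some listed genes are not reported here.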

Additional observations from a re-analysis of the deposited data

Results flagged for a closer look

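For 4 genes the 2-fold rule was met in opposite directions in the M-BMDM and GM-BMDM pairs. The difference between the pairs was not tested, and each pair is 1 library a side. 2210418O10Rik had 12.7 CPM in M-BMDM and 5.99 CPM after 3 h (log2 ratio -1.09), and 2.99 and 9.45 CPM in the GM-BMDM pair (1.66). Rps27rt, a copy of the ribosomal protein gene Rps27, had 6.23 and 2.95 CPM (-1.08), and 3.59 and 7.70 CPM in the GM-BMDM pair (1.10). Gm12537, a pseudogene with a near-identical copy in Gm5069, had 2.20 and 5.44 CPM (1.31), and 9.15 and 4.15 CPM in the GM-BMDM pair (-1.14). With copies summed it belongs to a family of 60 that includes Gapdh, with 1770 and 2030 CPM in the M-BMDM pair (0.19). Srp54c was at least 38.3-fold higher after 3 h in M-BMDM, from 0 to 136 counts, and went from 202 to 0 counts in the GM-BMDM pair. Of the 4, 2210418O10Rik has no copy or overlap by the limits used, but 9.10% of its transcript matches Gm2026. Gm2026 moved the opposite way, with 4.40 and 8.25 CPM in the M-BMDM pair (0.91) and 7.59 and 3.39 CPM in the GM-BMDM pair (-1.16).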

How the results depend on the processing

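No called value reversed under the 4 scalings, and none could, since the largest shift was -0.046 (log2) against a limit of 2-fold. With near-identical copies summed, 22 of the 36 counted genes fell in families, of which the ratio had the opposite sign for 8 genes. For 6 of these the interval of the family excluded equal levels: mt-Co3 went from -1.35 to 0.14, Rps13-ps2 from -2.37 to 0.18, Ppp1ccb from -1.67 to 0.09, Rps27rt from -1.08 to 0.20, Gm15429 from -1.03 to 0.14, and Srp54c from at least 38.3-fold higher to -0.25. Under the scalings 98 of 100 gene values stayed within their counting interval (Csf1r and Csf2rb did not with total counts) and 134 of 135 list medians moved by less than the spread over their genes (that of the SOCS genes became -0.11 with total counts), and total counts shifted every ratio by -0.046 (log2), the largest shift of the 4 scalings. The counts of 9 higher and 27 lower genes depend on the limits. They became 56 and 110 at 1.5-fold, 3 and 7 at 3-fold, 106 and 179 with a CPM limit of 1, 3 and 9 with a CPM limit of 10, and 4 and 12 with near-identical copies summed, which was added after seeing the data. In the shared test the 29 rises became 16 with a CPM filter of 5 and 0 with DESeq2's Wald test, and the 107 falls became 4 with that test; limma-voom called 23 and 79. The cause was not tested. No pairing by mouse or culture was possible because the labels carry no replicate numbers, and the shared test held only a term for cell type. With 1 library per group no replicate could be left out. At 5 to 10 CPM the counting interval alone spans about 0.36 either side of the ratio.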

Other observations

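Outside the lists and the naming rule, 3 genes that differed by at least 1.5-fold but less than 2-fold at 3 h are given here, chosen after their values were seen. Gphn, the scaffold protein gephyrin, had 88.3 CPM in M-BMDM and 135 CPM after 3 h (log2 ratio 0.61), and 98.4 and 74.1 CPM in the GM-BMDM pair. Iffo2, an intermediate filament family gene, had 45.3 and 24.3 CPM (-0.90), and 10.5 and 14.2 CPM in the GM-BMDM pair. Gm21969, named above, moved the opposite way to Iffo2 in both pairs. It had 0.107 and 15.1 CPM in the M-BMDM pair and 10.1 and 6.88 CPM in the GM-BMDM pair. Whether Iffo2 and Gm21969 share reads was not tested. Gstm5, a glutathione transferase, had 6.55 and 12.4 CPM (0.92). Of the 56 genes higher at 1.5-fold, 19 had a ratio above 0 in the GM-BMDM pair and 37 below, where 54.0% of all genes with at least 5 CPM in that pair were above 0; of the 110 lower ones, 70 had a ratio below 0 there and 39 above.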
